A study of Bos taurus with 12 samples.

Results

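DGKH (ENSBTAG00000013879), CALML4 (ENSBTAG00000025822) and GRK3 (ENSBTAG00000000005) are 3 of the 27607 genes counted in peripheral white blood cells (PWBCs) of beef heifers, and each encodes a protein that tunes a signal passed inside the cell. All 3 were taken by their Ensembl identifiers, and all 3 were among the 13012 genes that passed the filter on low counts. They were chosen by values already known from these libraries, among them the difference between fertile and subfertile heifers, so their levels in that comparison are a description and carry no test. The 12 animals were Simmental-Angus cross-bred heifers in a first breeding season, each with 1 library from blood drawn 2 days before artificial insemination (AI). Estrus was synchronised in all 12 with gonadotropin-releasing hormone, a progesterone insert and dinoprost. The 6 fertile heifers conceived at the first AI and carry the label Pregnant, whereas the 6 subfertile heifers, labelled Open, were still not pregnant after AI and natural service. Groups were assigned afterwards from these outcomes, and the reproductive tract score, a rating of pubertal development, was 5 in 1 heifer of each group (LM1247 fertile, LM1246 subfertile) and 4 in the others.

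Receptors on white blood cells pass chemokine and lipid signals inward through G proteins and phospholipase C, which releases calcium and the membrane lipid diacylglycerol. Diacylglycerol recruits protein kinase C and the RasGRP activators of Ras and Rap1, and diacylglycerol kinases such as DGKH end that signal by converting the lipid to phosphatidic acid. Calcium is read by calmodulin and its relatives, proteins with EF-hand motifs, to which CALML4 belongs; CALML4 is known chiefly as a light chain of an unconventional myosin in the brush border of epithelia. GRK3 acts at the receptor itself: it is drawn to the membrane by free G protein beta-gamma subunits and phosphorylates active receptors, which arrestins then bind and silence.

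Library totals ranged from 14010736 to 21278761 counts, and between 15625 and 16323 genes had at least 1 count. Levels are given as CPM, read counts scaled to a common library size after correction by the trimmed mean of M values (TMM), whose factors lay between 0.896 and 1.11. The most abundant gene took 1.82% to 7.40% of a library. Of the marker genes that could be named, those of T cells (3 of 8: CD3E, CD4 and CD8A) summed to 615 to 1108 CPM in fertile and 524 to 884 CPM in subfertile heifers, and those of B cells (2 of 7: CD79A and PAX5) to 367 to 750 and 395 to 714 CPM. The named platelet markers (3 of 8: ITGA2B, GP9 and TUBB1) summed to 429 to 7983 CPM in fertile and 410 to 2646 CPM in subfertile heifers, with LM1330 highest and LM1244 and LM1246 lowest. The platelet medians were 1931 and 1092 CPM, fertile first, and log2FC was -0.34 (standard error 0.29) for ITGA2B, -1.22 (0.76) for GP9 and -1.09 (0.59) for TUBB1. Of the B cell markers, CD79A was at -0.15 (0.19) and PAX5 at -0.51 (0.24). The only named eosinophil marker of 6, CCR3, had the same heifer highest, at 207 CPM, and the same pair lowest, at 10.9 and 11.1 CPM. Those of plasma cells (2 of 5: JCHAIN and XBP1) summed to 264 to 453 CPM in fertile and 361 to 710 CPM in subfertile heifers, with medians of 315 and 435 CPM, and log2FC was 0.59 (standard error 0.22) for JCHAIN and -0.02 (0.10) for XBP1. Those of NK cells (2 of 6: PRF1 and GZMB) summed to 70.9 to 158 CPM in fertile and 70.8 to 111 CPM in subfertile heifers, with medians of 109.2 and 77.6 CPM, and log2FC was -0.40 (0.19) for PRF1 and -1.004 (0.45) for GZMB. Across the remaining groups of markers, the summed level was 11.7 to 32.7 CPM for monocytes (2 of 6), 1.45 to 13.2 CPM for dendritic cells (1 of 5) and 21.7 to 215 CPM for neutrophils (2 of 6). No marker of basophils and mast cells or of erythroid cells could be named. Among the markers named, CXCR2 in LM1330 was the only one at a count of 0.

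DGKH had the fewest reads of the 3 genes and the largest difference between groups. Fertile heifers had 10 to 40 DGKH reads each, with a median of 17.5 and 121 in all, and subfertile heifers had 0 to 19, with a median of 3 and 33 in all. On the scaled library sizes, DGKH ranged from 0.606 to 2.42 CPM in the fertile group (median 1.06) and from 0 to 1.04 CPM in the subfertile group (median 0.177). The groups overlapped through a single subfertile heifer, LM1259, at 1.04 CPM, while the other 5 subfertile heifers lay below all 6 fertile heifers. Fertile heifers averaged 1.16 ± 0.656 CPM of DGKH (SD, n = 6). Subfertile heifers averaged 0.305 ± 0.375 CPM (SD, n = 6), which is 0.263 of the fertile mean. The fitted log2FC, given throughout as subfertile against fertile, was -1.87 (standard error 0.64). In PWBCs, a mixture of cell types, fewer cells that carry DGKH and less DGKH RNA per cell cannot be told apart.

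At these depths each DGKH value carries a wide counting error. The 40 reads of the fertile heifer LM1330 correspond to 2.42 CPM with an exact 95% Poisson interval of 1.73 to 3.29 CPM. That interval does not meet the interval of 0.626 to 1.62 CPM around LM1259, the highest subfertile heifer. LM1251 had no DGKH read, and a count of 0 allows up to 0.214 CPM there, taken as 3 counts; the exact Poisson interval, which is two-sided, ends at 0.263 CPM. LM1283, LM1246 and LM1265 had 2, 3 and 3 reads. Intervals and limits of this kind cover counting error only, since reads amplified by PCR are not independent molecules. Counting alone would give a coefficient of variation of 22.5% among fertile and 42.9% among subfertile heifers, and the observed values were 56.5% and 123%.

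Single heifers moved the size of the DGKH difference but not its direction. Without LM1259, log2FC was -2.79 (standard error 0.59), the lowest of the 12 fits that each left out a heifer, and without LM1330 it was -1.53, the highest. LM1330 also had the largest sums of the platelet, eosinophil and T cell markers, 7983, 207 and 1108 CPM, and the smallest of the plasma cell, monocyte, dendritic cell and neutrophil markers. LM1259 ranked 10 of 12 in platelet and eosinophil markers, at 786 and 24.9 CPM, and had the smallest T cell and the largest plasma cell sum, 524 and 710 CPM. Between the groups, only the plasma cell sum, of whose 2 genes only JCHAIN was higher, had a higher median in subfertile heifers. The medians of all other marker sums were lower there, with ranges that overlapped. Fertile first, they were 1931 and 1092 CPM for platelets, 109.2 and 77.6 for NK cells, 574 and 479 for B cells and 809 and 794 for T cells. They were 103 and 77.8 CPM for neutrophils, 39.7 and 32.6 for eosinophils, 21.5 and 18.3 for monocytes and 4.05 and 3.76 for dendritic cells. The part of these cell types in the DGKH level was not tested.

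**Figure D1:**
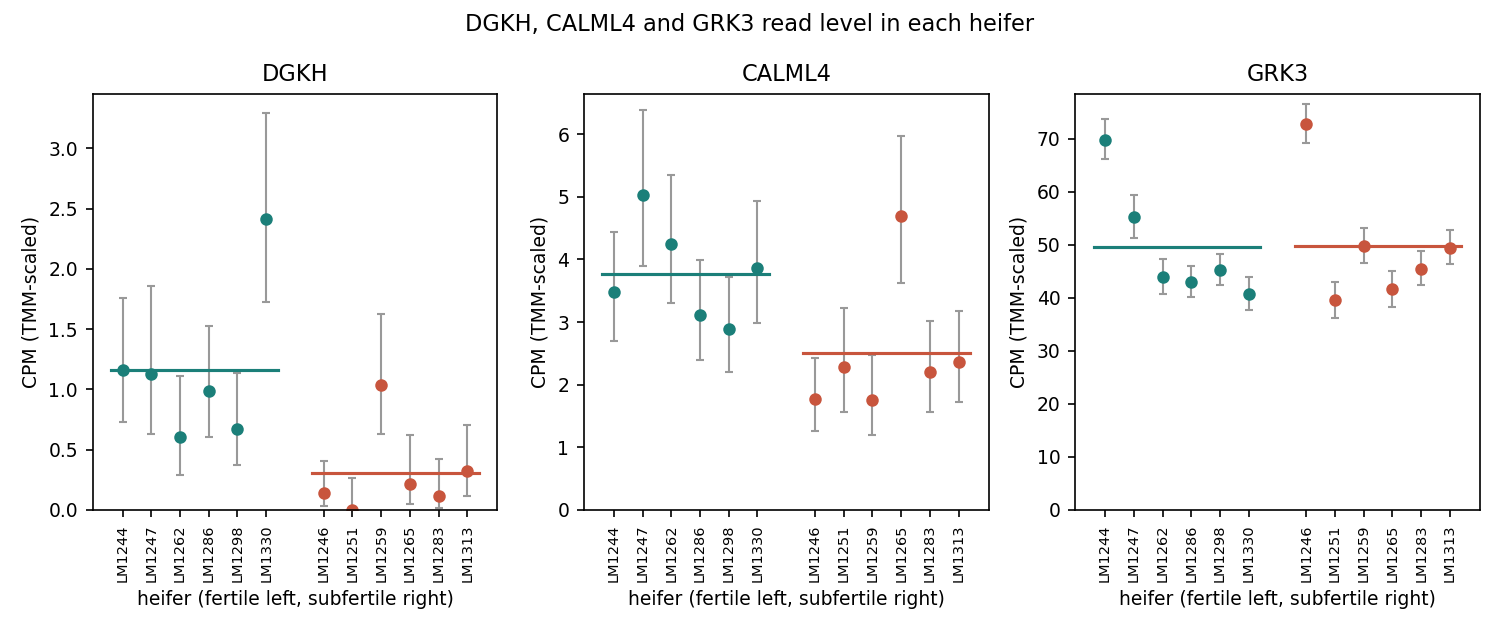
TMM-scaled CPM of DGKH, CALML4 and GRK3 in each of the 12 heifers, fertile in teal and subfertile in red, with exact 95% Poisson intervals of the read count in grey and group means as horizontal lines; the CPM axis of each panel starts at 0. For DGKH and CALML4, 5 of 6 subfertile heifers lie below every fertile heifer, and for GRK3 the highest heifer of each group, LM1244 at 69.9 CPM and LM1246 at 72.8 CPM, stands apart from the other animals of its group.

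CALML4 was also lower in most subfertile heifers, by a smaller step. Its read counts were nearly level in the fertile group, from 60 to 70 with a median of 65, and ranged from 32 to 66 with a median of 38 in the subfertile group. In CPM, the fertile heifers ran from 2.89 through a median of 3.68 to 5.03, and the subfertile heifers from 1.75 through 2.24 to 4.69. The highest subfertile value belonged to LM1265, which was second of all 12 heifers, and the remaining 5 subfertile heifers, at no more than 2.37 CPM, lay below every fertile heifer. Group means were 3.77 ± 0.789 CPM (SD, n = 6) and 2.51 ± 1.10 CPM (SD, n = 6), fertile first, and log2FC was -0.59 (standard error 0.27).

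In the fertile group CALML4 had a coefficient of variation of 20.9%, against 12.6% from counting alone. In the subfertile group it was 43.8% against 15.7%. The interval of LM1265, 3.63 to 5.97 CPM, lay above that of LM1259, the lowest heifer, at 1.20 to 2.47 CPM. Without LM1265, log2FC was -0.86, and without the fertile heifer LM1247 it was -0.49. LM1265 had the second largest platelet marker sum, 2646 CPM, and the largest of the monocyte and dendritic cell markers, 32.7 and 13.2 CPM. It ranked 2 of 12 in neutrophil markers, at 195 CPM, and 3 of 12 in NK cell markers, at 111 CPM. The part of these cell types, or of the group differences in marker medians given above, in the CALML4 level was not tested.

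With edgeR at the thresholds of the study, an unadjusted P of 0.05 or less and an absolute log2FC of 0.5 or more, DGKH and CALML4 were past both, as were 182 of the 13012 genes (1.40%). The share over all genes was 2.77% without LM1244 and 0.896% without LM1330. DGKH stayed past both in all 12 fits that left out a heifer. CALML4 did so in 3 of those 12, without LM1286, LM1298 or LM1265, and was no longer past them in the other 9, in which log2FC was -0.61 to -0.49. It was not past them with the reproductive tract score in the model either, or with every gene of at least 1 count kept. Since this contrast was in view when the genes were taken, nothing is read from these counts. The pattern of at least 5 subfertile heifers below all fertile heifers, which DGKH and CALML4 share, was found in 44 genes of 13012 (0.338%), and 16 genes (0.123%) had groups that did not overlap at all. For scale, the median absolute log2FC over all genes tested was 0.11, with a median of 0.01.

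GRK3 had far more reads, and its group means differed by less than the spread between heifers. Fertile heifers had 673 to 1323 GRK3 reads (median 803) and subfertile heifers 553 to 1563 (median 847.5). In CPM this was 40.7 to 69.9 with a median of 44.6 in fertile and 39.5 to 72.8 with a median of 47.5 in subfertile heifers, and the groups overlapped almost fully. GRK3 averaged 49.7 ± 11.1 CPM (SD, n = 6) in the fertile and 49.8 ± 12.02 CPM (SD, n = 6) in the subfertile group, and log2FC was 0.004 (standard error 0.17). The sign depended on the animals: with each heifer left out in turn, log2FC ranged from -0.14 without LM1246 to 0.13 without LM1244, and it was negative in 5 of the 12 fits.

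GRK3 varied within both groups, with a coefficient of variation of 22.4% in fertile and 24.2% in subfertile heifers. At this depth counting error was small, 3.42% and 3.40%. LM1246, at 72.8 CPM, was 1.84 times the lowest subfertile heifer, and LM1244, at 69.9 CPM, was 1.72 times the lowest fertile heifer. Exact Poisson intervals of both, 69.3 to 76.5 and 66.1 to 73.7 CPM, lay above those of all other heifers, the next of which was LM1247 at 55.3 CPM (51.4 to 59.4). LM1244 and LM1246 also had the lowest sums of platelet markers, 429 and 410 CPM, of eosinophil markers, 10.9 and 11.1 CPM, of B cell markers, 367 and 395 CPM, and of NK cell markers, 70.9 and 70.8 CPM. In T cell markers they ranked 10 and 11 of 12, and they had the largest TMM factors, 1.10 and 1.11. The part of these cell types in the GRK3 level was not tested. Without the TMM factors, on library totals alone, the same pair was highest, at 76.9 and 80.5 CPM, and the other heifers lay between 37.9 and 53.8 CPM. LM1246 and LM1247 were the heifers with a reproductive tract score of 5. Adding that score to the model gave a GRK3 log2FC of -0.02 (standard error 0.14). With 1 heifer of score 5 in each group, the score term rests on LM1246 and LM1247 alone.

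Set against genes of similar abundance, the 3 members varied to different degrees within groups. The standard deviation of log2 CPM around the group means was 0.91 for DGKH, and the 500 genes nearest to it in mean log2 CPM had a median of 0.87. For CALML4 it was 0.41 against a median of 0.54, at percentile 20 of its neighbours, and for GRK3 it was 0.30 against 0.23, at percentile 76. DGKH was at percentile 54. Thus GRK3 scattered more than most genes of its abundance, and CALML4 less. The members were taken with the group contrast in view, which a gene passes more easily when its spread is small. The low spread of CALML4 is therefore a description only.

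**Figure D2:**
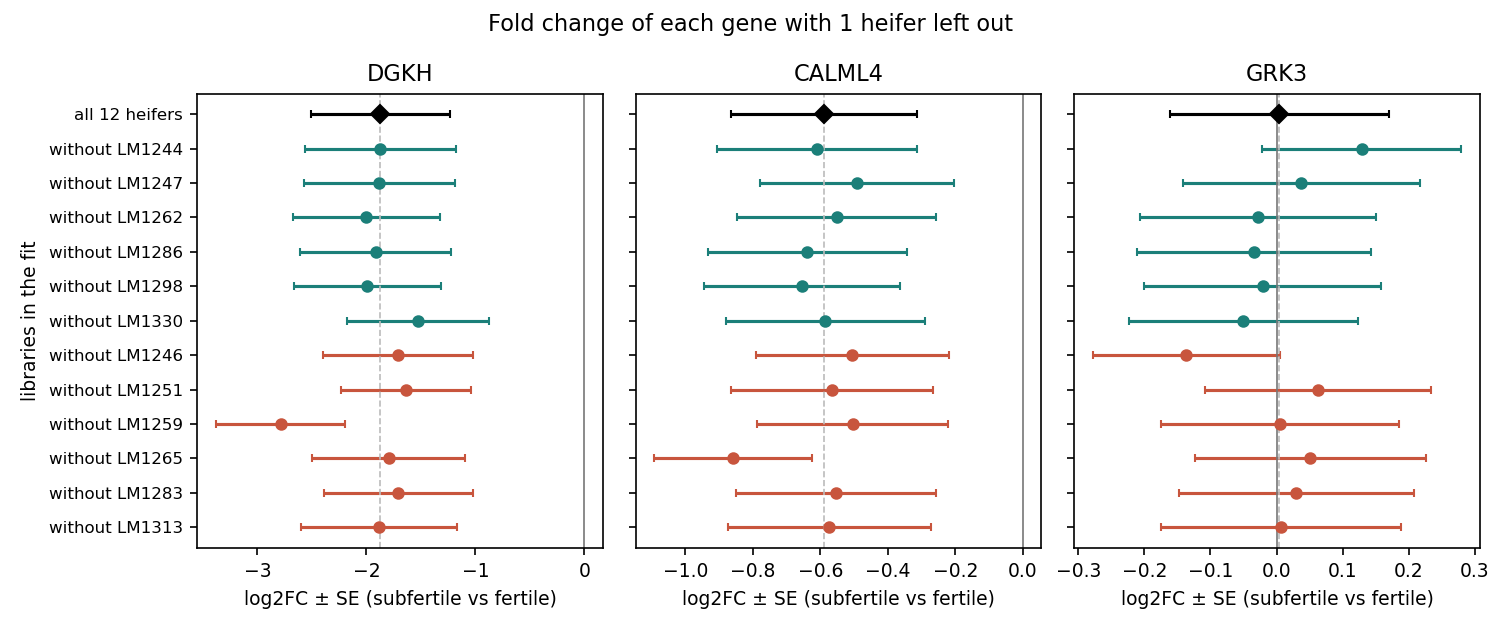
Fitted log2FC with its standard error for DGKH, CALML4 and GRK3, with all 12 heifers (black diamond) and with each heifer left out in turn (teal where a fertile heifer was left out, red where a subfertile one was); each panel has its own horizontal scale. DGKH runs from -2.79 without LM1259 to -1.53 without LM1330, CALML4 from -0.86 without LM1265 to -0.49 without LM1247, and GRK3 falls on both sides of 0.

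Whether the members vary together was examined within each group, where the difference between groups plays no part. Across the 6 fertile heifers, Pearson's r of log2 CPM was 0.19 for DGKH and CALML4, -0.03 for DGKH and GRK3 and 0.17 for CALML4 and GRK3, with Spearman's rho of 0.14, -0.03 and 0.09. Across the 6 subfertile heifers r was -0.17, 0.21 and -0.56 in the same order, and rho was -0.14, 0.54 and -0.66. The exact permutation P of r, two-sided, was between 0.156 and 0.903 over these 6 relations, and that of rho between 0.175 and 1. After Benjamini-Hochberg adjustment, every exact P of r was at least 0.87 and every exact P of rho at least 0.89. With 6 heifers the smallest P this test can give is 0.00278. Leaving out the 2 heifers farthest from the median of the first gene of a pair brought r to between -0.88, for CALML4 and GRK3 in subfertile heifers, and 0.67, for DGKH and GRK3 in fertile heifers. No pair passed the test in either group.

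Each member had its own set of genes with a like pattern over the 12 heifers, taken from 2794 named genes with a mean of at least 1 CPM. Genes without a name came closer. Over all 12376 genes with that mean, the largest r was 0.85 for DGKH, 0.92 for CALML4 and 0.97 for GRK3. The most negative r was -0.88, -0.90 and -0.95 in the same order. These correlations share the same 12 libraries and are given without P. They include the difference between groups, which was in view when the members were taken. The names came from tables of genes linked to the study's differential genes. Which genes came out nearest depended on the measure: with group means removed, 0 of the 8 named for DGKH, 2 of 8 for CALML4 and 7 of 8 for GRK3 were again among the nearest, and with Spearman's rho 5, 4 and 1 were. For DGKH the largest positive r of a named gene was 0.82, for EBPL, a protein related to emopamil-binding sterol isomerase, followed by POLE3, a DNA polymerase epsilon subunit (0.71), NMNAT3, an NAD-synthesising enzyme (0.71), the chemokine CCL4 (0.70) and the tight junction protein OCLN (0.70). EBPL, NMNAT3, CCL4 and OCLN shared their highest heifer, LM1330, with DGKH. The most negative named genes were CYP2U1, a cytochrome P450 (r = -0.86), FRS3, an adaptor of fibroblast growth factor receptors (-0.80), and AMY2B, an amylase (-0.80), all highest in LM1251, the heifer without a DGKH read. Without LM1251 and LM1330, r with EBPL was 0.58 and with NMNAT3 0.37, while that with POLE3 was 0.77 and with CYP2U1 -0.74. Log2FC ran from -1.56 for OCLN to -0.08 for POLE3 in the 5 positive genes and from 0.57 for CYP2U1 to 0.89 for AMY2B in the 3 negative ones. After the group means were removed, r ran from 0.50 for CCL4 to 0.71 for POLE3 and from -0.75 for CYP2U1 to -0.50 for AMY2B.

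The named genes most like CALML4 were PTPRF, a receptor tyrosine phosphatase (r = 0.86), CBS, an enzyme of homocysteine metabolism (0.84), SEMA4C, a semaphorin (0.82), TAL1, a transcription factor of blood stem, erythroid and megakaryocyte cells (0.78), and CRYL1, a crystallin-related dehydrogenase (0.78). The most opposed named genes were PKP2, a desmosomal protein (-0.84), NUP37, a nuclear pore subunit (-0.83), and KLHL15, an adaptor of a ubiquitin ligase (-0.78). With the farthest heifers, LM1259 and LM1246, left out, r ran from 0.61 for TAL1 to 0.76 for PTPRF among the positive genes and from -0.81 to -0.62 among the negative ones. After the group means were removed, r ran from 0.59 for CRYL1 to 0.87 for CBS and from -0.78 for PKP2 to -0.65 for KLHL15.

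GRK3 had far more genes with a like pattern than the other members. An absolute r of at least 0.8 was reached by 547 of 12376 genes (4.42%) for GRK3, by 23 (0.186%) for CALML4 and by 12 (0.097%) for DGKH. The members also differed in read depth, with 553 to 1563 reads a heifer for GRK3, 32 to 70 for CALML4 and 0 to 40 for DGKH. The part of read depth and counting error in these numbers was not tested. The nearest named genes were ARL1, a small GTPase of the Golgi (r = 0.91), TUT7, which adds uridines to RNA (0.91), CD200R1L, a receptor of the CD200 receptor family (0.90), GSAP, known as an activator of gamma-secretase (0.90), and DCLRE1C, the Artemis nuclease of V(D)J recombination (0.88). The most opposed were SSR2, a translocon-associated protein (-0.95), the initiation factor subunit EIF3F (-0.93) and the ribosomal protein RPL18 (-0.91), each lowest in LM1246. Without LM1246 and LM1244, r was 0.56 to 0.67 for the positive genes and -0.80 to -0.63 for the negative ones, so part of each value rested on that pair of heifers.

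**Figure D3:**
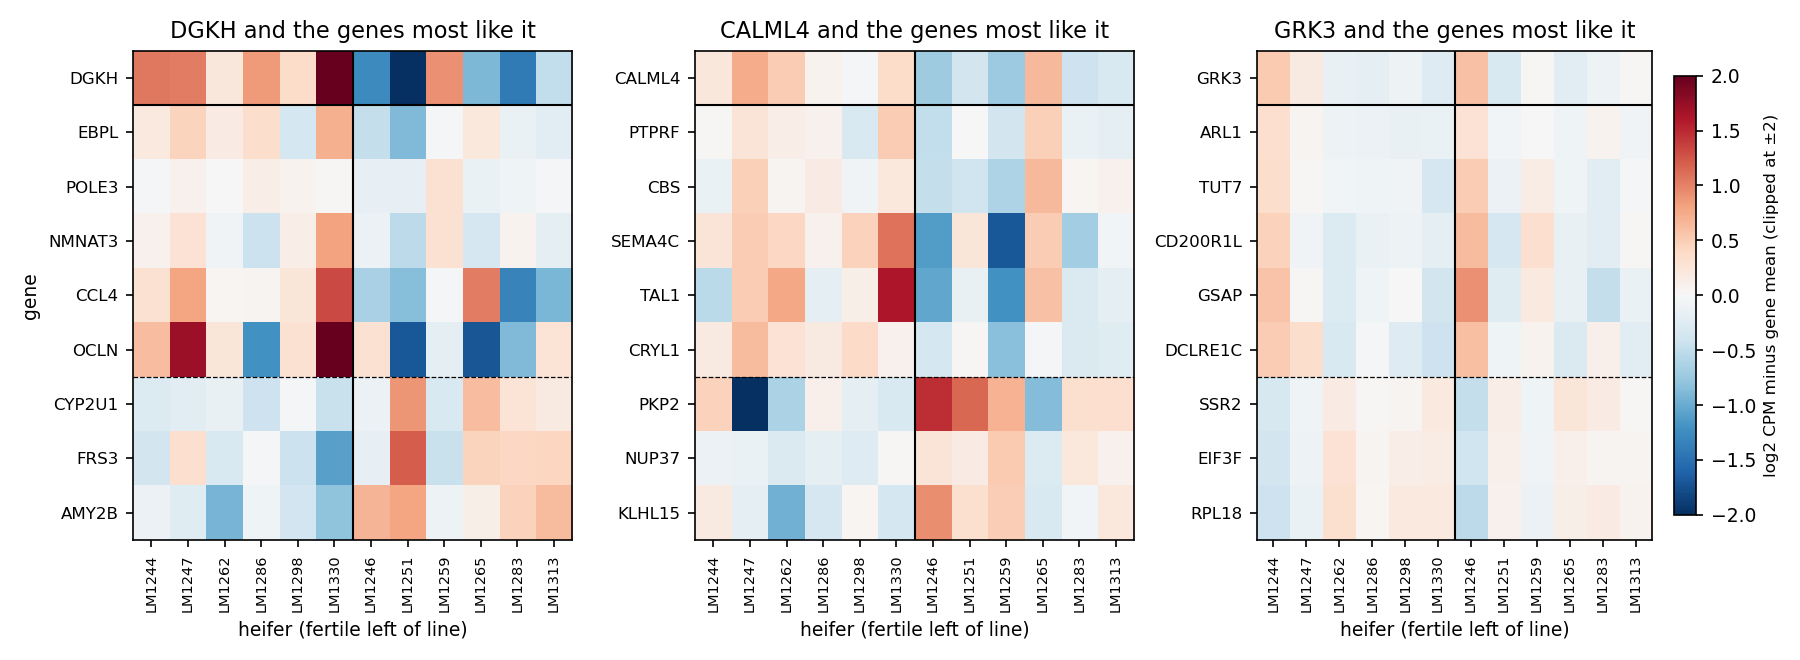
Deviation of log2 CPM from each gene's own mean in the 12 heifers, for each member (top row) with the 5 named genes of largest positive r and, below the dashed line, the 3 of most negative r; red is higher and blue lower, with colours ending at 2 in either direction. DGKH itself is highest in LM1330 and lowest in LM1251, and LM1244 and LM1246 stand out together in the GRK3 panel although they belong to different groups.

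Within single groups the number of close partners differed between the members too. On variance-stabilised counts, the scale used for the study's networks, GRK3 reached an absolute Pearson's r of at least 0.95 with 224 genes in fertile heifers (108 positive and 116 negative) and with 91 in subfertile heifers (40 and 51). The study instead used partial correlation with information theory and kept pairs holding a differential gene or a predicted regulator. Its connection numbers are therefore not comparable with these. Over all genes tested the median number was 56 among fertile heifers and 61 among subfertile ones, and the fertile number for GRK3 was above that of 96.0% of genes and the subfertile number above that of 60.7%. DGKH had 36 partners in fertile and 25 in subfertile heifers, and CALML4 had 24 and 41. Of these partners, GRK3 kept 3 in both groups, and DGKH and CALML4 kept 0. With 6 heifers a correlation of this size can rest on 1 animal, and the numbers are a description.

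With all 12 heifers, none of the other genes of these pathways that could be named passed the thresholds of the study. Of 219 genes in 13 lists drawn up around the members, 44 could be named and all 44 were tested. With edgeR, 0 of the 44 were called, against 1.40% of all genes, and no list gene had an adjusted P below 0.9998. Over the 13012 genes, edgeR, DESeq2 and voom each left 0 past an adjusted P of 0.05, while 341 had an unadjusted edgeR P of 0.05 or less. At an unadjusted P of 0.05 or less alone, 1 of the 44 passed with edgeR, with DESeq2 and with voom. In all 3 fits that gene was PRKCA, protein kinase C alpha, which diacylglycerol activates; it had 10.8 to 14.6 CPM in fertile and 8.36 to 12.7 CPM in subfertile heifers, with a log2FC of -0.34 (standard error 0.14, edgeR adjusted P = 0.9998). Log2FC was negative in 32 of the 44 genes (72.7%) and in 48.2% of all genes tested, and the median was -0.06 over the lists and 0.01 over all genes. The named genes came from tables of genes linked to the study's differential genes, so they are not a random part of the lists.

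Around DGKH, the diacylglycerol side was represented by 7 genes. None of the other 9 diacylglycerol kinases in the list could be named. PLPP2, a lipid phosphatase that makes diacylglycerol from phosphatidic acid, had a log2FC of -0.07 (standard error 0.28), with a median of 5.66 CPM among fertile and 4.71 CPM among subfertile animals. Log2FC was negative in all 6 effectors of diacylglycerol (median -0.08, 0 called), including PRKCB, protein kinase C beta, at -0.09 and RASGRP2, the Rap1 activator of platelets and lymphocytes, at -0.02, which had the most reads of this list. In the Ras-ERK cascade below them, 1 of 4 was positive, NRAS at 0.05, and ARAF was at -0.12.

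Around CALML4, both calmodulin genes that could be named had values a little below 0. CALM2 had medians of 549.8 CPM in fertile and 513 CPM in subfertile heifers (log2FC -0.05, standard error 0.09), and CALM3 had 98.5 and 89.6 CPM (-0.27, standard error 0.22). Of 7 calmodulin targets, 2 were positive and 5 negative with a median of -0.09, and 0 were called. CAMK2D, a calcium/calmodulin-dependent kinase, was at 0.29 (standard error 0.17) and NFATC1, a transcription factor released by calcineurin, at -0.09 (0.09). MYLK, myosin light chain kinase, had the largest difference of that list at -0.90 (0.52), with 1.06 to 27.6 CPM in fertile heifers. The calcium store and entry genes lay close to 0 (median -0.05, 0 of 3 called), with ITPR2, an inositol trisphosphate receptor, at -0.13 and ATP2B1, a plasma membrane calcium pump, at 0.07. No gene of the intermicrovillar adhesion complex, the brush border partners of CALML4, could be named.

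Around GRK3, both related kinases that could be named had a log2FC near 0. GRK2, the closest relative of GRK3, ranged from 493 to 589 CPM in fertile and from 510 to 687 CPM in subfertile heifers, with a log2FC of 0.01 (standard error 0.09), and GRK4 had a log2FC of 0.04 (0.14). The fertile heifer with the lowest GRK2, LM1244 at 493 CPM, was the one with the highest GRK3. No arrestin could be named. The RGS proteins, which speed the shut-off of G proteins, were all negative (0 of 3 called, median -0.39), with RGS3 at -0.20 (0.16) and RGS10 at -0.51 (0.46), and RGS10 ranged from 25.4 to 231 CPM in fertile heifers with LM1330 highest. Of 6 G protein subunits 5 were negative, with a median of -0.03 and 0 called: GNB1, a beta subunit, was at -0.04 (0.07), and GNG11, a gamma subunit, at -0.69 (0.45), with 175 to 1787 CPM in fertile heifers. Of 7 receptors 3 were positive and 4 negative, with a median of -0.17 and 0 called. The positive ones were CXCR2 at 0.15 (0.85), CCR10 at 0.10 (0.49) and ADRB1 at 0.22 (0.56). CXCR4, the receptor for the chemokine CXCL12, was at -0.17 (0.33), CX3CR1, the fractalkine receptor, at -0.29 (0.28) and CCR3, the eotaxin receptor, at -1.09 (0.55). When LM1244 was left out, CCR3, GNG11 and MYLK were called as lower in subfertile heifers, as 2.77% of all genes were called in either direction in that fit. When LM1286 was left out, CCR3 was called, as were 1.67% of all genes. LM1244 was the fertile heifer with the lowest platelet sum. It also had the lowest eosinophil sum, which is CCR3 alone and so restates the value of that gene. The part of these cell types in the calls was not tested. In the Rap1 switch, 2 of 3 were positive with a median of 0.05 and 0 called, RAPGEF3 being at 0.05 (0.23) and RAPGEF6, also an activator of Rap1, at -0.11 (0.23).

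**Figure D4:**
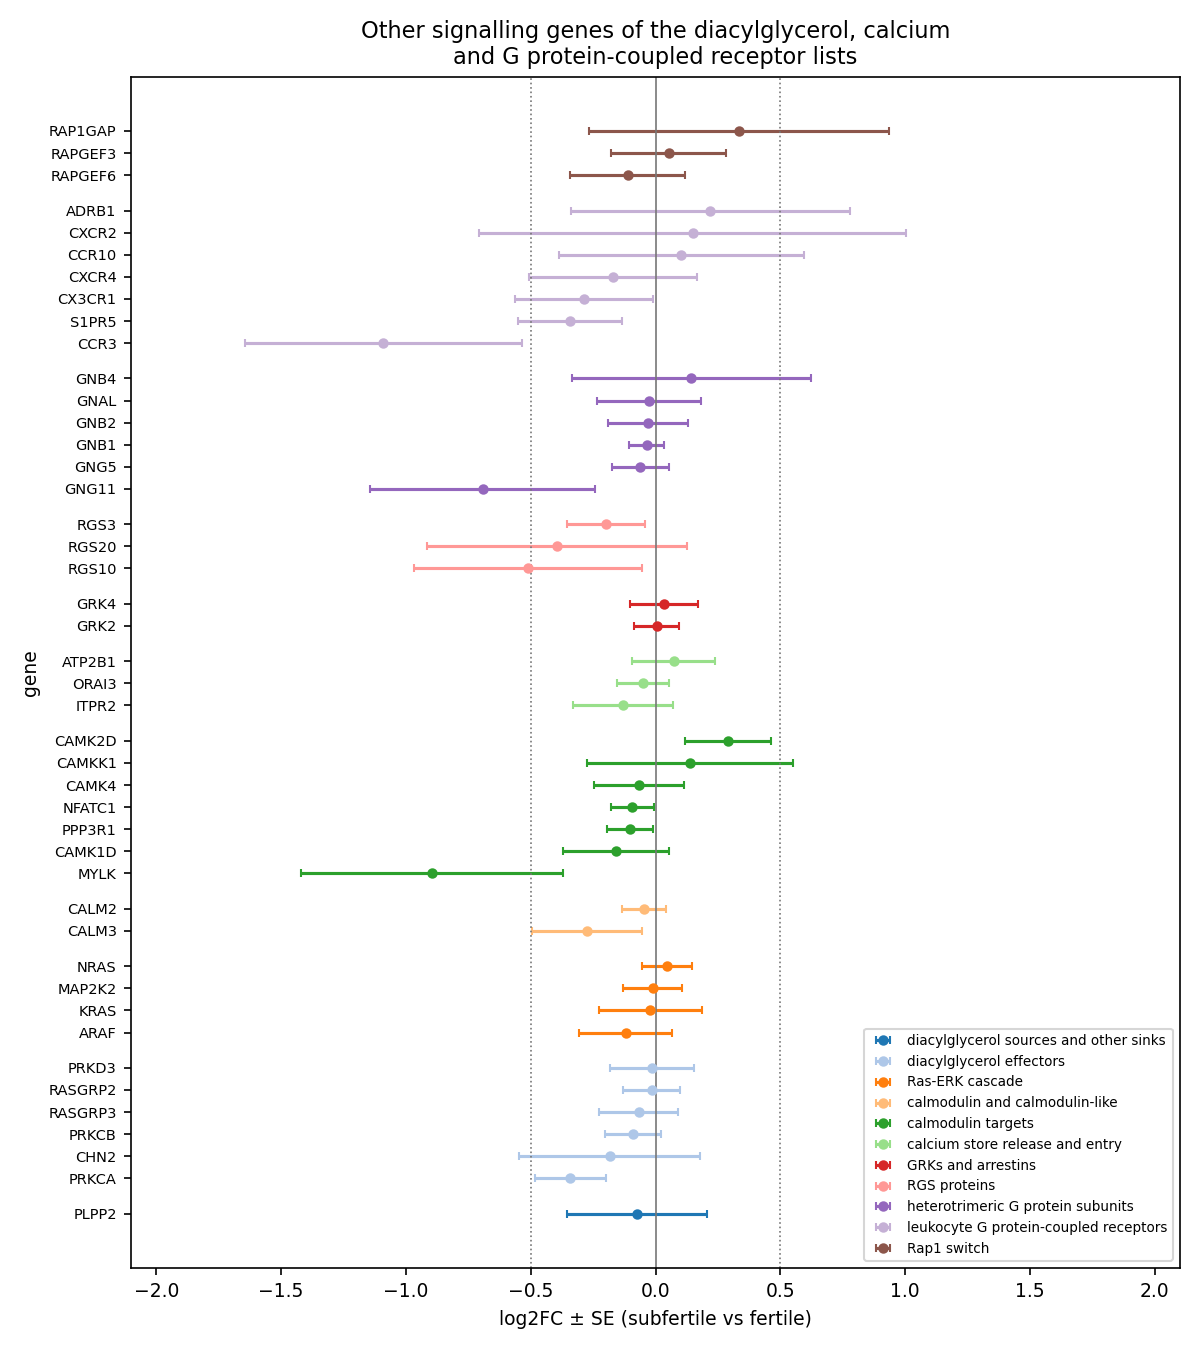
Log2FC with its standard error, subfertile against fertile, of the 44 other signalling genes that could be named, coloured by list; dotted lines mark the study's limit of 0.5 in either direction. Most genes lie within the dotted lines, and 4 lie beyond the lower one: CCR3, MYLK, GNG11 and RGS10, none of which was called with all 12 heifers.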

How the data were processed

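Directional mRNA libraries, prepared after poly(A) selection from PWBCs of 12 heifers, were sequenced. The authors mapped the reads with STAR (2.7.5 in the submitters' processing notes) to ARS-UCD1.3, counted them on Ensembl genes and deposited raw counts, neither normalised nor filtered; the strand column taken is not given in the sources used here, so reads of antisense partners may not be separable. Here, edgeR 4.0.16 in R 4.3.3 was used: filterByExpr with the fertility groups and a minimum count of 10, TMM, and the quasi-likelihood test with fertility group as its only term. Benjamini-Hochberg adjustment ran over all 13012 genes. Standard errors are the absolute log2FC over the square root of F. Log2 CPM used a prior count of 2. DESeq2 1.42.0, the tool of the study, and voom (limma 3.58.1) were alternatives, as were other scaling, gene filters, the reproductive tract score as a term and each library left out. The fit was tested on simulated data.

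The members and gene lists were chosen with earlier results of these data known. Named are the members, all measured genes of their families, from each other list the genes called and the 2 with the highest mean CPM, and for each member the 5 most positively and 3 most negatively correlated named genes; PRKCA, MYLK, CCR3, CXCR2, CCR10, ADRB1 and the marker genes fall outside that rule and were chosen after their values were seen. The count of partners at an absolute r of 0.95 and correlations without the 2 farthest heifers were likewise chosen after seeing the data. Names came from the supplementary tables (2874 genes). In RefSeq for ARS-UCD2.0, no gene overlaps the 3 members. Transcript lengths and sequences were not used here, so the order of genes by reads or CPM is not read as an order of transcript number. Such orders served to choose genes to name or to describe read depth. Samples are separate heifers, and P-values rest on the spread between them.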

Additional observations from a re-analysis of the deposited data

Results flagged for a closer look

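Gaps between the most extreme heifer and its nearest neighbour were compared with Dixon's 95% limit for 6 animals in 76 sets of 6 values, the members, the signalling genes named above and the marker sums by group; 15 exceeded it. Chance gives about 1 in 20 in unselected, independent sets of normally distributed values. Here the values are CPM, which need not be normal, and the sets share the same 12 libraries. The members and some of these genes were also chosen with their values known, so the number is a description. All 3 members had such a heifer in the subfertile group. DGKH reached 1.04 CPM in LM1259 against 0.323 CPM in the next subfertile heifer, CALML4 reached 4.69 CPM in LM1265 against 2.37 CPM, and GRK3 reached 72.8 CPM in LM1246 against 49.7 CPM. Among fertile heifers, DGKH stood out in LM1330, at 2.42 CPM against 1.16 CPM. These are 4 different animals.

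The other such values were in the fertile group NRAS at 125 CPM in LM1286, ARAF at 248 CPM, RGS10 at 231 CPM, MYLK at 27.6 CPM, CCR3 at 207 CPM and the platelet marker sum at 7983 CPM in LM1330, GRK2 at 493 CPM in LM1244 and CX3CR1 at 357 CPM in LM1247, and in the subfertile group ATP2B1 at 258 CPM in LM1246, GRK2 at 687 CPM in LM1283 and the NK cell marker sum at 111 CPM in LM1265.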

How the results depend on the processing

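Direction was the same for DGKH and CALML4 under all alternatives run; DGKH was absent from the filter of at least 10 counts in every library. With a heifer left out, DGKH log2FC ranged from -2.79 to -1.53 (without LM1259 and LM1330), CALML4 from -0.86 to -0.49 and GRK3 from -0.14 to 0.13. CALML4 was past the thresholds of the study in 3 of these 12 fits and DGKH in 12. Both genes were taken with this contrast in view, so nothing is read from these counts of fits. Other settings gave -2.36 (voom) to -1.83 for DGKH, -0.65 (voom) to -0.59 for CALML4 and -0.02 to 0.02 for GRK3. Calls among the 44 signalling genes numbered 0 in every setting except without LM1244 (3: CCR3, GNG11 and MYLK, lower in subfertile heifers) and without LM1286 (1: CCR3), a range of 0 to 3. Over all genes 2.77% and 1.67% were called in those 2 fits. The filter of at least 10 counts in every library left 41 of the 44 to test. No paired analysis was possible because replicate numbers only follow accession order. No member pair passed an adjusted exact permutation P of 0.05 with 6 heifers a group in any setting. With a heifer left out r lay between -0.67 (CALML4 and GRK3, subfertile, without LM1265) and 0.82. For DGKH and GRK3, r went from 0.21 to 0.82 in subfertile heifers without LM1246. In fertile heifers that pair went from -0.03 to 0.71 without LM1330. A single pair could then reach an adjusted P of only 0.1, so those fits bear on r alone. The named genes most like a member depended on the measure. Of the 8 for DGKH, 0 were kept with group means removed, 5 with Spearman's rho and 5 on variance-stabilised counts. For CALML4 2, 4 and 5 were kept in that order, and for GRK3 7, 1 and 7. The cause was not tested. Over all genes, the called share was 1.40%, and 3.21% with every gene of at least 1 count. Low counts limit the precision of DGKH.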
